A study of Mus musculus with 12 samples.

Results

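The 10 enzymes described here build purine and pyrimidine nucleotides, and their messenger RNA was measured in mouse bone marrow cells of 4 genotypes. The set was given as a list of gene symbols: Cad, Dhodh, Umps and Ctps of pyrimidine synthesis, and Ppat, Gart, Pfas, Paics, Atic and Impdh2 of purine synthesis. All 10 were found by symbol among the 37187 genes of the deposited table, and all 10 passed the filter on low values (10 or more in 3 or more libraries). The cells were LSK cells (negative for lineage markers, positive for Sca-1 and c-Kit), the bone marrow fraction that holds stem cells and multipotent progenitors. With 3 libraries each, the genotypes were a double knockout of Tet2 and Traf6 (labelled dKO), a knockout of Tet2 alone (Tet2 KO), a knockout of Traf6 alone (Traf6 KO) and wild type (WT). Tet2 encodes an enzyme that oxidises methylated cytosine in DNA. The product of Traf6 is a ubiquitin ligase of innate immune signalling. How the alleles were deleted, in which cells, the age of the mice and whether animals were pooled are not given in the sources used here. Nothing in the labels ties the 3 libraries of a genotype to separate animals, so the p-values refer to spread among libraries that could be technical repeats.

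Cells make nucleotides either anew from small precursors or by salvage of free bases and nucleosides. In new pyrimidine synthesis the ring is assembled first by CAD, oxidised by DHODH in mitochondria and joined to ribose phosphate by UMPS, and CTPS later turns UTP into CTP. In new purine synthesis the ring is built directly on ribose phosphate, from the PPAT reaction through GART, PFAS, PAICS and ADSL to ATIC, which closes it as IMP, and IMPDH2 then opens the branch to guanine nucleotides. Growing and dividing cells draw heavily on both routes, and several of these genes, Cad among them, are textbook targets of the transcription factor MYC.

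Each value is a normalised signal (whole reads over the size factor of their library), and 22169673 to 53921402 reads lay behind each library. Library totals of the signal were 25557760 to 28916082 in 11 libraries and 39973892 in dKO replicate 3. The libraries labelled Tet2 KO replicate 1 and Traf6 KO replicate 1 had the targeted gene within the WT range (Tet2 at 668 and Traf6 at 2474). Of 7 genes checked (Tet2, Traf6, Xist and Y-linked genes), 2 were lower in dKO than in WT, against 26.5% of all tested genes. After removal of the length trend described below, 0 of the 7 passed, so neither Tet2 nor Traf6 was called in dKO there. The female-specific RNA Xist stood at 990.3 to 3826 in both single knockouts and reached at most 17.0 in dKO and WT, so every comparison except dKO against WT also sets libraries of different sex-linked expression against each other, and genotype and sex cannot be told apart there. Of 10 LSK genes, 7 were lower in dKO than in WT, against 26.5% of all tested genes. Among the 7 was Kit, the receptor of the sort gate, at 6713 ± 4522 in dKO and 46708 ± 1926 in WT (mean ± SD, n = 3 each). The median transcript length of the 10 was 4185.5 nucleotides, and 54.4% of tested genes over 4000 nucleotides were lower. With the length trend described next removed, 5 were lower and 1 was higher, against 29.2% of genes with a known length called in either direction. Kit still fell with the trend removed (log2 change -1.92, limma adjusted p = 0.00092). In bulk RNA, fewer cells of a type and less RNA per cell cannot be told apart.

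Change in dKO followed transcript length. The median log2 change of dKO against WT was 1.55 for tested genes whose longest transcript has at most 1000 nucleotides and -1.23 for those over 4000 nucleotides. Enzyme transcripts differ in length, from 1858 nucleotides for Impdh2 to 7137 for Cad, so the dKO against WT change of each enzyme is given as deposited and again after the smooth dependence on length and GC content was subtracted from every library. A positive log2 change means a higher value in the genotype named before "against".

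**Figure D1:**
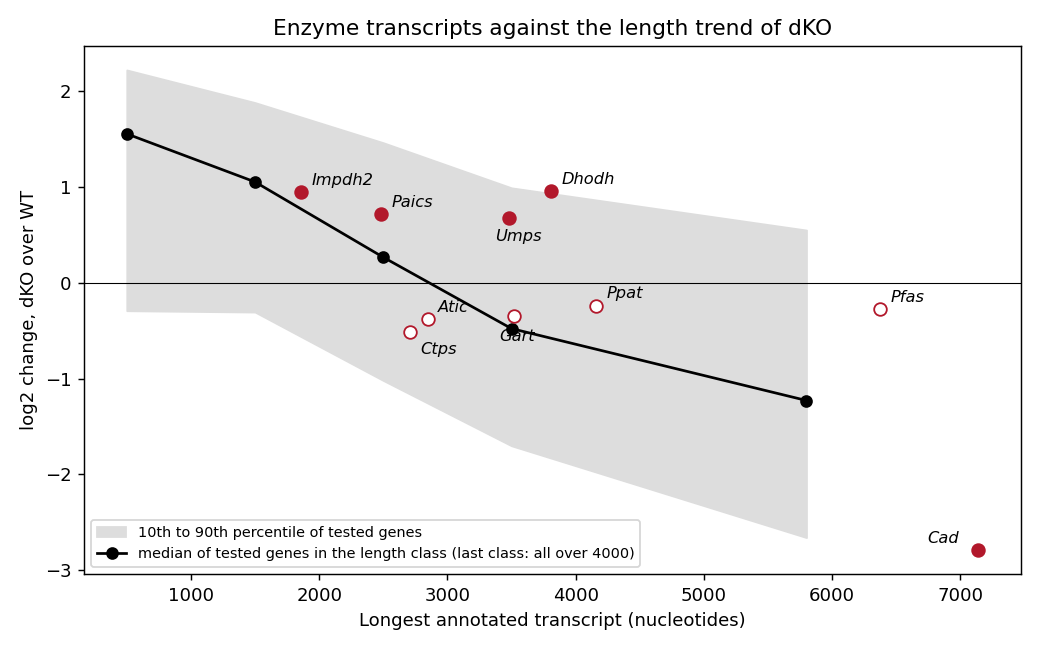
Log2 change of dKO over WT (vertical axis) against the length of the longest annotated transcript in nucleotides (horizontal axis). Red points are the 10 enzymes, filled where the limma adjusted p of the deposited values was under 0.05, the black line joins the medians of tested genes per length class, and the band runs between their 10th and 90th percentiles. The medians descend between 1.55 and -1.23, Impdh2 lies near the line, Dhodh and Umps lie above it, and Cad at 7137 nucleotides lies lowest.

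In dKO against WT, 4 of the 10 enzyme transcripts rose (Dhodh, Umps, Impdh2 and Paics), Cad fell, and 5 passed the limma test in neither direction. Over all 14045 tested genes 48.3% passed the same test in this comparison, 21.9% upward and 26.5% downward, so the count of 5 in 10 is close to the background. The median log2 change of the 10 was -0.26, against -0.094 for all tested genes. Those medians were 0.23 and -0.037 with the trend removed, and 0.074 and -0.065 on deposited values without dKO replicate 3, so the sign for the 10 was not stable. With the length and GC trend removed 4 of 10 passed (3 higher, 1 lower), against 29.2% of all genes with a known length, and these were Dhodh, Umps, Pfas and Cad. Dhodh and Umps were higher and Cad was lower in both readings. The 5 enzymes called on deposited values were also those whose dKO and WT libraries did not overlap, against 58.4% of all tested genes.

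**Figure D2:**
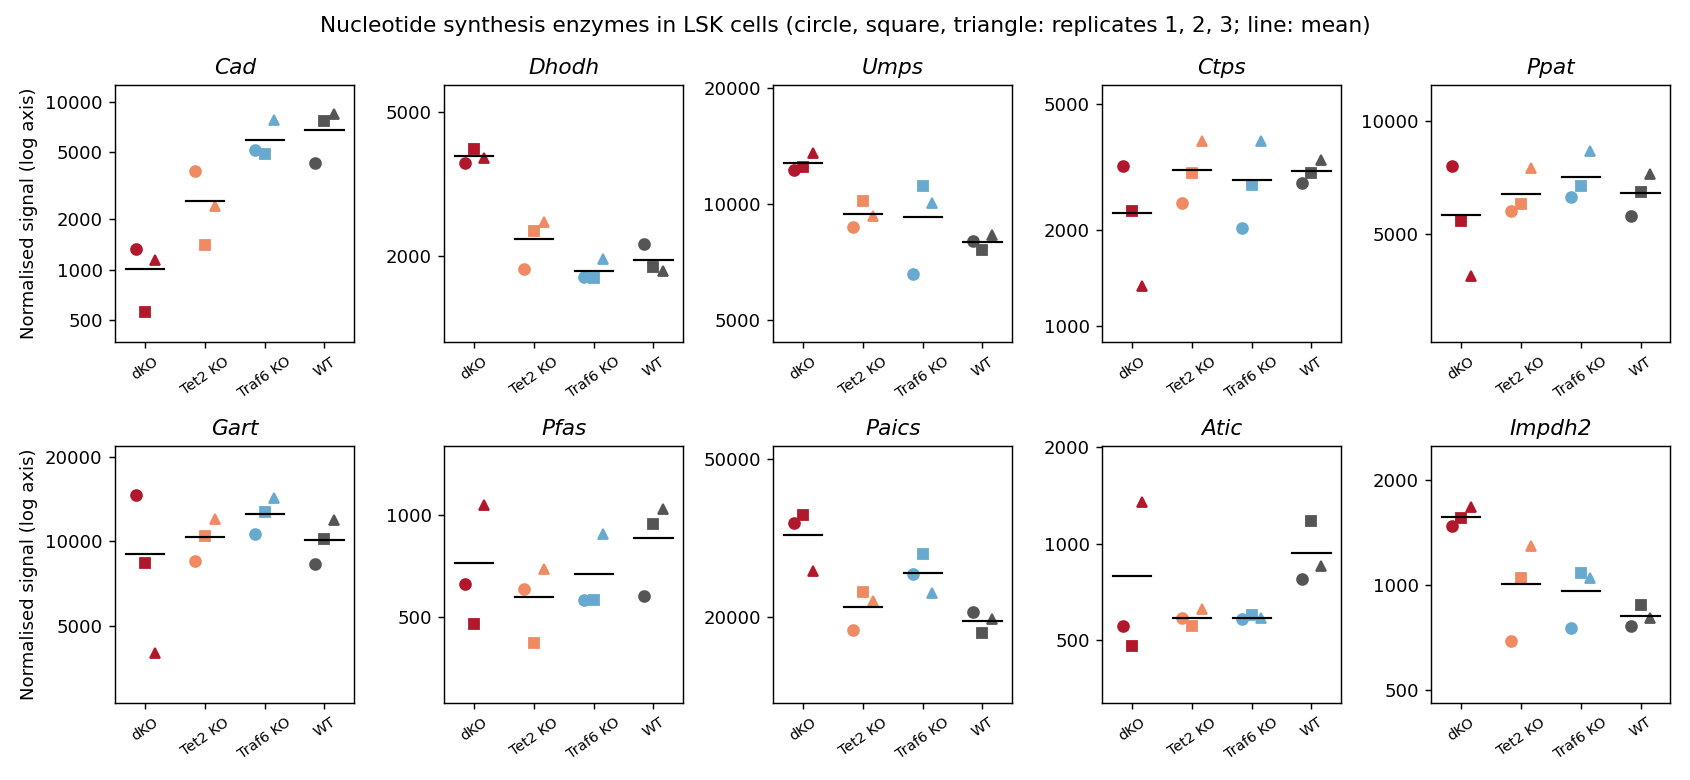
Normalised signal of each enzyme transcript (vertical log axis) in the libraries of dKO, Tet2 KO, Traf6 KO and WT (horizontal axis). Symbols are single libraries and lines are group means. Dhodh, Umps and Impdh2 are higher in all 3 dKO libraries than in any WT library, Cad is lower in all 3, and Gart spreads between 4007 and 14598 within dKO.

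Cad carries the opening activities of pyrimidine synthesis on a single protein (carbamoyl phosphate synthetase, aspartate transcarbamylase and dihydroorotase). The gene lies on chromosome 5, 31054780 to 31078479, plus strand (GRCm38). Cad had a signal of 1327, 557 and 1149 in dKO replicates 1, 2 and 3, of 3860.4, 1412 and 2407 in Tet2 KO, of 5159.6, 4905 and 7816 in Traf6 KO, and of 4329, 7740.1 and 8425 in WT. The 3 dKO libraries were the lowest of all 12, the Tet2 KO libraries came next and all lay under every WT library, and Traf6 KO and WT overlapped. In dKO against WT the log2 change was -2.79 ± 0.41 (SE), limma adjusted p = 0.00047. Removing the trend left a log2 change of -0.88 ± 0.25 (SE), limma adjusted p = 0.020, so the call held and the size shrank. The median of all tested genes over 4000 nucleotides, -1.23, stands beside the deposited value.

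Cad was also the enzyme with the lowest value in Tet2 KO against WT, at -1.48 ± 0.41 (SE). That change missed the limma threshold (adjusted p = 0.19) although the libraries did not overlap. DESeq2 on the recovered reads gave -1.41 with adjusted p = 0.042, and with the trend removed limma gave -0.82 with adjusted p = 0.25. In dKO Cad was lower than in Tet2 KO by the deposited values (-1.32, limma adjusted p = 0.027), a call that ended with the trend removed (-0.065, adjusted p = 0.88) and also without the library labelled Tet2 KO replicate 1 (-0.96, adjusted p = 0.13), without Tet2 KO replicate 3 (-1.30, adjusted p = 0.063) and without dKO replicate 2 (-0.93, adjusted p = 0.11). Against Traf6 KO the fall of Cad in dKO held both ways (-2.62, adjusted p = 0.0021, and -1.09 with the trend removed, adjusted p = 0.013).

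Dhodh encodes the mitochondrial dehydrogenase that makes orotate and passes electrons to the respiratory chain. The gene lies on chromosome 8, 109591343 to 109608673, minus strand. Dhodh had a signal of 3623, 3970.3 and 3744 in dKO, 1848, 2356 and 2489 in Tet2 KO, 1754, 1741 and 1969 in Traf6 KO, and 2158, 1864 and 1825 in WT. All 3 dKO libraries exceeded all 9 others and differed little among themselves, and the single knockouts overlapped WT. Dhodh rose in dKO against WT by 0.96 ± 0.20 (log2 change ± SE, limma adjusted p = 0.0028), and it was also higher than in Tet2 KO (0.77, adjusted p = 0.015) and in Traf6 KO (1.05, adjusted p = 0.0034). With the trend removed the 3 changes were 1.55, 1.29 and 1.55, with adjusted p-values of 0.00068, 0.0061 and 0.0025. The longest annotated Dhodh transcript (3807 nucleotides) is not the longest coding form (2039 nucleotides), and with coding forms as the measure of length the change against WT was 0.59 (adjusted p = 0.017). The other trend-removed values of Dhodh (single knockouts, interaction, ratio to Cad) rest on the 3807 nucleotide form. Over the 24 alternatives described below, the change was 0.51 to 1.29 against Tet2 KO and 0.71 to 1.55 against Traf6 KO.

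Dhodh was also the enzyme with the smallest p in the interaction, which asks whether dKO departs from Tet2 KO by the same step as Traf6 KO departs from WT. Its interaction was 0.87 ± 0.29 (log2 ± SE), limma adjusted p = 0.23. The DESeq2 value was 0.87 with adjusted p = 0.041, and limma without dKO replicate 1 gave 0.90 with adjusted p = 0.048. Both settings also had more low p-values over all 14045 tested genes. Unadjusted p was under 0.05 for 3636 genes by DESeq2 and 5341 by limma without dKO replicate 1, against 2616 by limma with all libraries. Leaving out any 1 library gave 14 to 2445 genes called by limma. Removing the trend gave 1.30 with adjusted p = 0.12 by limma, and the value was 0.64 to 1.30 over 23 alternatives. No enzyme passed the limma test of the interaction with all libraries, and 0.221% of all tested genes passed. An unadjusted limma p under 0.05 was found for 1 of the 10 enzymes and for 2616 of the 14045 tested genes.

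Umps encodes the enzyme that attaches orotate to ribose phosphate and decarboxylates the product to UMP. The gene lies on chromosome 16, 33954782 to 33967038, minus strand. Umps had a signal of 12225, 12459 and 13539.8 in dKO, 8729, 10162 and 9286 in Tet2 KO, 6585, 11112 and 10069 in Traf6 KO, and 8031, 7590.4 and 8319 in WT. The dKO libraries again lay above all 9 others, and the Tet2 KO libraries lay above every WT library. Umps rose in dKO against WT by 0.67 ± 0.21 (log2 change ± SE, limma adjusted p = 0.018), and by 0.99 with the trend removed (adjusted p = 0.0046). The call ended when library totals were made equal (0.42, adjusted p = 0.14) and without WT replicate 2 (0.64, adjusted p = 0.065). The antisense gene Gm15829 overlaps 213 exonic nucleotides of Umps, and reads of the pair could not be told apart by strand.

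Ctps encodes the cytidine triphosphate synthetase, which uses glutamine to aminate UTP. Ctps had a signal of 3189, 2297 and 1335 in dKO, 2445, 3037 and 3832 in Tet2 KO, 2040.0, 2773 and 3832 in Traf6 KO, and 2823, 3041 and 3337 in WT. The dKO libraries spread more widely than the WT libraries and overlapped them, with dKO replicates 2 and 3 under every WT library. Its log2 change in dKO against WT was -0.52 (95% interval -1.21 to 0.18), limma adjusted p = 0.20. It was -0.72 with the trend removed (adjusted p = 0.098), and -0.80 with adjusted p = 0.040 without dKO replicate 1.

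The ratio of these transcripts inside a library does not depend on how libraries are scaled to each other. Umps reads per Cad read were 9.21 to 22.4 in dKO, 2.26 to 7.19 in Tet2 KO, 1.28 to 2.27 in Traf6 KO and 0.981 to 1.86 in WT. Dhodh per Cad was 2.73 to 7.13 in dKO, 0.479 to 1.67 in Tet2 KO, 0.252 to 0.355 in Traf6 KO and 0.217 to 0.499 in WT. For deposited Umps per Cad, dKO and Tet2 KO each stood apart from WT and from each other, whereas Traf6 KO overlapped WT. In dKO and Tet2 KO, Umps lay above and Cad below every WT library in both readings, so separation of their ratio from WT was fixed by those values. It is not further support. The same holds for Dhodh per Cad in dKO against WT. How often other gene pairs stand apart in this way was not counted. With the trend removed the log2 ratio of Umps to Cad was 2.46 to 3.25 in dKO, 1.63 to 2.62 in Tet2 KO, 0.83 to 1.17 in Traf6 KO and 0.79 to 1.29 in WT, so dKO and Tet2 KO each stayed above WT but overlapped each other. The trend-removed log2 ratio of Dhodh to Cad was 0.82 to 1.81 in dKO, -0.69 to 0.50 in Tet2 KO, -1.54 to -1.12 in Traf6 KO and -1.54 to -0.65 in WT, and dKO lay above all others. That ratio takes Dhodh at 3807 nucleotides and is not given on its coding form of 2039 nucleotides.

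**Figure D3:**
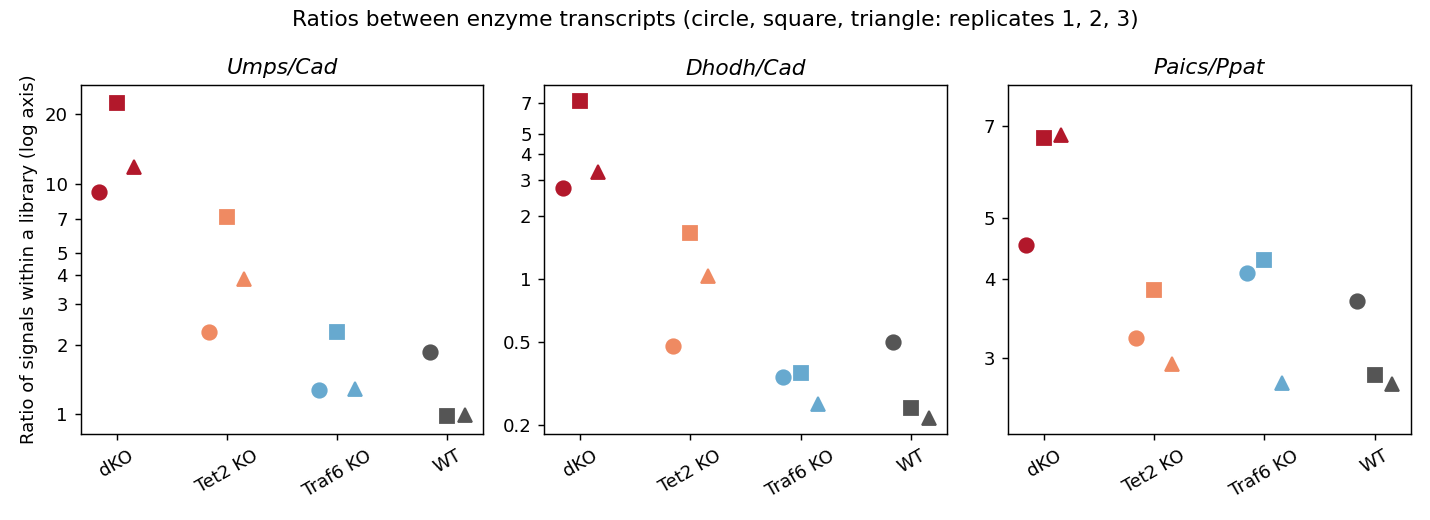
Ratio of the signals of 2 enzyme transcripts within each library (vertical log axis) in dKO, Tet2 KO, Traf6 KO and WT (horizontal axis), 1 symbol per library. Umps per Cad spans 9.21 to 22.4 in dKO against 0.981 to 1.86 in WT, and Paics per Ppat spans 4.53 to 6.77 in dKO against 2.72 to 3.69 in WT.

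The promoters of Cad and Umps are shown because the pair opens and closes the making of UMP and moved in opposite directions. Sequences are from the RefSeq table on GRCm38.p6, run 5′ to 3′ on the gene's strand and reach 250 bases before to 50 bases after the annotated start, at chr5:31054530-31054829 (plus strand) and chr16:33966989-33967288 (minus strand). Capitals mark the cyclic AMP response element TGACGTCA. The searches covered both strands.
Cad: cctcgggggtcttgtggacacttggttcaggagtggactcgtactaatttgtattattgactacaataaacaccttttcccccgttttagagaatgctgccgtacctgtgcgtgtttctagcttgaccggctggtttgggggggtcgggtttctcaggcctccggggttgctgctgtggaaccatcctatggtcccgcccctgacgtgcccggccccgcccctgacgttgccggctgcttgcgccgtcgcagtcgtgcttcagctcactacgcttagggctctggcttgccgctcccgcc
Umps: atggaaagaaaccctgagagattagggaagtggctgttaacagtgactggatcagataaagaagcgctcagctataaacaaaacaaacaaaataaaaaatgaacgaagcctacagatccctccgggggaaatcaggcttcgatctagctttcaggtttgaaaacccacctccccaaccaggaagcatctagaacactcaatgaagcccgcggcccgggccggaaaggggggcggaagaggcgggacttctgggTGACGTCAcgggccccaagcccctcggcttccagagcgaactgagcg
Umps holds TGACGTCA 3 bases after its start, a word present in 1.8% of 32851 promoter windows of the same length. Cad holds no match in this window to TGACGTCA, to the E-box CACGTG (7.2% of windows) or to CCAAT (37.4% of windows). Letters further than 50 bases after the start were not searched, so a match there would not be seen. GGGCGG, the core of the GC box, was in all 8 of the enzyme promoters in the table and in 35.7% of windows, and is not marked.

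On the purine side, Ppat encodes the amidotransferase that commits ribose phosphate to purine synthesis. Ppat had a signal of 7600.2, 5401 and 3846 in dKO, 5737, 5995 and 7480.0 in Tet2 KO, 6258, 6717 and 8353 in Traf6 KO, and 5569, 6462 and 7224 in WT. The 4 genotypes overlapped, and dKO held both the lowest value and, after Traf6 KO replicate 3, the next highest. The log2 change of dKO against WT was -0.24 (95% interval -0.78 to 0.30), limma adjusted p = 0.45, and 0.26 with the trend removed (adjusted p = 0.35).

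Gart encodes a protein with 3 activities of purine ring assembly. Gart had a signal of 14598, 8406 and 4007 in dKO, 8484, 10487 and 12047 in Tet2 KO, 10591, 12679 and 14261 in Traf6 KO, and 8291, 10208 and 11936 in WT. The dKO libraries held both the highest and the lowest of all 12 values, with replicate 1 highest and replicate 3 lowest, the same libraries as for Ppat and Ctps within dKO. The log2 change of dKO against WT was -0.35 (95% interval -1.12 to 0.43), adjusted p = 0.45 by limma. It was 0.18 with the trend removed (adjusted p = 0.68), 0.14 without dKO replicate 3 and -0.79, with adjusted p = 0.036, without dKO replicate 1. The antisense gene Gm15964 overlaps Gart by 1014 exonic nucleotides.

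Pfas encodes the amidotransferase that brings glutamine nitrogen into the growing ring, and it was the least abundant enzyme per kilobase. Pfas had a signal of 625, 476 and 1067 in dKO, 605, 420.1 and 695 in Tet2 KO, 561, 561 and 881 in Traf6 KO, and 579, 940.2 and 1039.7 in WT. The genotypes overlapped as deposited, with a log2 change of -0.28 ± 0.36 (SE) in dKO against WT and a limma adjusted p of 0.55. With 6373 nucleotides Pfas is the longest of the set after Cad, and with the trend removed its change turned to 1.27 ± 0.30 (SE), adjusted p = 0.0089. The direction for Pfas therefore rests on whether the trend is taken off.

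Paics encodes the enzyme with the carboxylase and succinocarboxamide synthetase activities of the pathway, and it was the most abundant of the 10 per kilobase, with a median of 9245 signal units per kilobase over the 12 libraries, against 2996 for Gart, the next. Paics had a signal of 34407, 36073 and 26027 in dKO, 18479, 23023 and 21953 in Tet2 KO, 25604, 28737 and 22869.9 in Traf6 KO, and 20571, 18174 and 19667 in WT. All dKO and all Traf6 KO libraries lay above WT, and dKO overlapped Traf6 KO. In dKO against WT Paics rose by 0.71 ± 0.19 (log2 change ± SE, limma adjusted p = 0.0088), a call that ended with the trend removed (0.37, adjusted p = 0.12) and with equal library totals (0.46, adjusted p = 0.14). The trend on coding forms left it at 0.52 with adjusted p = 0.027. In Traf6 KO against WT it was 0.40 ± 0.19 (SE), adjusted p = 0.65.

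Paics and Ppat are neighbours on chromosome 5 (76951307 to 76967509, plus strand, and 76913249 to 76951578, minus strand) and their opening exons face and overlap each other by 272 nucleotides, so that reads there could not be assigned by strand. The ratio of Paics to Ppat was 4.53 to 6.77 in dKO, 2.93 to 3.84 in Tet2 KO, 2.74 to 4.28 in Traf6 KO and 2.72 to 3.69 in WT. The dKO libraries lay above all others, which overlapped. Once the trend was removed the log2 ratio was 1.90 to 2.14 in dKO, 1.55 to 1.99 in Tet2 KO, 1.71 to 2.28 in Traf6 KO and 1.78 to 2.09 in WT, and all 4 genotypes overlapped. Both promoters are shown because the pair shares this region, at chr5:76951052-76951351 (plus strand) and chr5:76951529-76951828 (minus strand). Capitals mark CACGTG and CCAAT.
Paics: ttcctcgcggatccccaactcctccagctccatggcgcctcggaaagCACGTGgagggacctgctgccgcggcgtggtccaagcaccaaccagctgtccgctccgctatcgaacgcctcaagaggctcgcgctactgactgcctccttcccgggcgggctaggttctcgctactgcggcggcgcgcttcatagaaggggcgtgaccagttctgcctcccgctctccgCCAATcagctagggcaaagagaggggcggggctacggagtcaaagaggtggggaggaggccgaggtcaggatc
Ppat: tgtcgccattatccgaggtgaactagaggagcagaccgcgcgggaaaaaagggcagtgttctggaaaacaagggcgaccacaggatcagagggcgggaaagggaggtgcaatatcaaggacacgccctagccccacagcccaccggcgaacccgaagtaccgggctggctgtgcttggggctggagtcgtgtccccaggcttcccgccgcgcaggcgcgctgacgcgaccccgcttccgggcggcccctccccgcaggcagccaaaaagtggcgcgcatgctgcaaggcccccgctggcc
Paics holds the E-box CACGTG with its first base at -203 from the start and CCAAT at -23. Ppat holds neither in its window.

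Atic encodes the enzyme of the closing reactions that yield IMP. Atic had a signal of 551, 477 and 1349 in dKO, 583, 551 and 625 in Tet2 KO, 579, 596 and 584 in Traf6 KO, and 776, 1179 and 849 in WT. Every Tet2 KO and Traf6 KO library lay under every WT library, while in dKO replicates 1 and 2 lay under WT and replicate 3 above it. The log2 change was -0.65 ± 0.35 (SE) in Tet2 KO and -0.65 ± 0.35 (SE) in Traf6 KO against WT, with limma adjusted p-values of 0.70 and 0.72. In dKO against WT it was -0.38 (adjusted p = 0.39), -0.41 with the trend removed (adjusted p = 0.38), and -0.84 without dKO replicate 3 (adjusted p = 0.016).

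Impdh2 encodes the IMP dehydrogenase isoform typical of proliferating cells. The gene lies on chromosome 9, 108560286 to 108565584, plus strand. Impdh2 had a signal of 1477, 1556 and 1673 in dKO, 691, 1046 and 1292 in Tet2 KO, 753, 1085 and 1046 in Traf6 KO, and 764, 877 and 805 in WT. The dKO libraries lay above all others. Impdh2 rose in dKO against WT by 0.94 ± 0.27 (log2 change ± SE, limma adjusted p = 0.012). It is the shortest of the 10 transcripts, tested genes over 1000 and up to 2000 nucleotides had a median of 1.05, and with the trend removed its change was 0.21 with adjusted p = 0.53. The call of Impdh2 in dKO against Traf6 KO (0.72, adjusted p = 0.048) ended in 18 of the 24 alternatives tried, among them when replicate 1 labelled Traf6 KO was left out (0.56, adjusted p = 0.17).

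Its paralogue Impdh1, the housekeeping isoform, did not pass the test in dKO against WT (-0.32, limma adjusted p = 0.39). Impdh2 reads per Impdh1 read were 0.344 to 0.712 in dKO and 0.161 to 0.224 in WT, without overlap. They were 0.156 to 0.213 in Tet2 KO and 0.171 to 0.289 in Traf6 KO, also under dKO. On the log2 scale with the trend removed the ratio was -1.849 to -1.509 in dKO and -2.242 to -1.900 in WT, again without overlap. Tet2 KO stood at -2.386 to -2.100 and Traf6 KO at -2.160 to -1.845, so Traf6 KO overlapped dKO. A pseudogene, Impdh2-ps, is annotated, and reads that fit both are uncertain. The Impdh2 promoter is shown for its E-box and CCAAT match, given here in capitals (ATTGG is CCAAT on the other strand), at chr9:108560186-108560485 (plus strand).
Impdh2: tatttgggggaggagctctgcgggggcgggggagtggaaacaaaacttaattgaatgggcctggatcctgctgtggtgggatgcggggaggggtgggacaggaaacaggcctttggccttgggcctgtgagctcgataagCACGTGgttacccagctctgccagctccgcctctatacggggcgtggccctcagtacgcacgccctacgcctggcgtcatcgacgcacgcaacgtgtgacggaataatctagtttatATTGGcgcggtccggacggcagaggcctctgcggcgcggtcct
Of the 8 enzymes with a promoter in the table, Impdh2, Paics and Atic hold CACGTG, with its first base at -110, -203 and -7 from the RefSeq start. The RefSeq start of Impdh2 (108560436) lies 150 bases downstream of the gene's start given above. Its E-box and the later part of its window therefore fall within the annotated gene, and the window opens upstream of the gene. These matches are a description of letters and do not show binding.

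**Figure D4:**
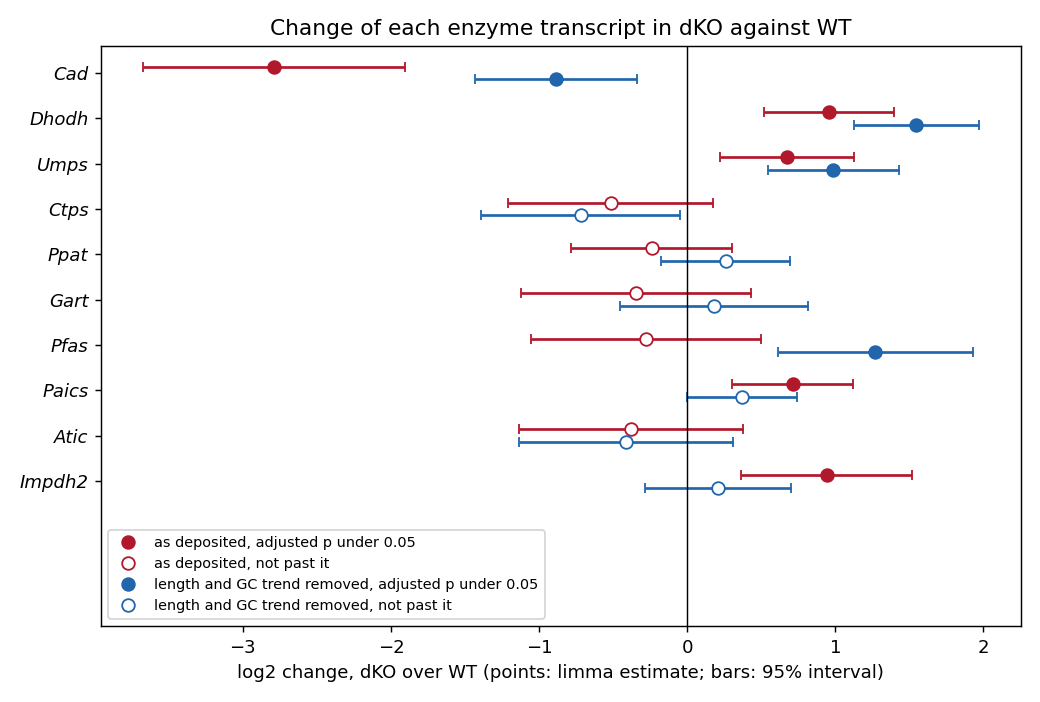
Log2 change of each enzyme transcript in dKO over WT (horizontal axis) by gene (vertical axis), with deposited values in red and trend-removed values in blue. Points are limma estimates, bars are 95% intervals and filled points have an adjusted p under 0.05. Dhodh and Umps lie right of 0 and Cad left of it in both colours, whereas Pfas moves to 1.27 and Impdh2 to 0.21 once the trend is removed.

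The single knockouts showed no enzyme past the limma threshold. In Tet2 KO against WT 0 of 10 passed, while 0.413% of all tested genes passed. An unadjusted limma p under 0.05 was found for 1 of the 10 and for 1186 of all 14045 tested genes. DESeq2 called 1, Cad, and its count over all genes, larger than that of limma, is given in the closing section. The libraries did not overlap for Cad and Atic, which were lower, and Umps, which was higher, 3 of 10 against 19.2% of all tested genes. In Traf6 KO against WT 0 of 10 passed and DESeq2 called 0, while 0.271% of all tested genes passed by limma. An unadjusted limma p under 0.05 was found for 0 of the 10 and for 1096 of all 14045 tested genes. The libraries did not overlap for Paics, which was higher, and Atic, which was lower, 2 of 10 against 20.7% of all tested genes.

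Set against the single knockouts, dKO differed in 3 enzymes each time. In dKO against Tet2 KO, Dhodh and Paics were higher and Cad was lower, against 35.3% of all tested genes called. With the trend removed Dhodh, Umps and Pfas were higher (1.29, 0.75 and 1.35), against 16.4% of all genes with a known length. All 3 calls on deposited values ended when the library labelled Tet2 KO replicate 1 was left out, with Dhodh at 0.64 (adjusted p = 0.069), Paics at 0.50 (adjusted p = 0.11) and Cad as given above. Calls also became fewer over the whole table. Without that library 5073 of 14045 tested genes had an unadjusted limma p under 0.05, against 6655 with all libraries. Leaving out any 1 library gave 867 to 6724 genes called, against 4963 with all. In dKO against Traf6 KO, Dhodh and Impdh2 were higher and Cad was lower, against 38% of all tested genes. With the trend removed Dhodh, Umps and Pfas were higher (1.55, 0.77 and 1.32) and Cad was lower, against 20% of all genes with a known length. These comparisons share the dKO libraries, so their results are not independent of each other or of dKO against WT.

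Over all 12 libraries the 5 other tested genes whose log2 signal was most like the mean of the 10 enzymes were Gsg2, a mitotic histone kinase (Pearson r = 0.88), the cyclin Ccna2 (0.84), 6720463M24Rik (0.82), the translation release factor Gspt1 (0.82) and the splicing factor Srsf1 (0.80). These r values are a description over 12 libraries that share size factors and the length trend.

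Genes around the 10 enzymes were counted in lists of related function, here for dKO against WT, where 21.9% of all tested genes were higher and 26.5% lower. The counts with the trend removed stand against 29.2% of genes with a known length called in either direction. Counts with 1 library left out stand against 4707 to 7768 of 14045 genes called in either direction, and 6790 were called with all libraries. Without WT replicate 2, 6606 genes had an unadjusted limma p under 0.05, against 7811 with all libraries. Among the other genes of purine ring synthesis and of its ribose phosphate donor, 3 of 6 tested genes rose and 0 fell, with a list median of 0.49. They were Prps1 and Prpsap1, of ribose phosphate activation (0.97 and 0.73), and Adsl, the lyase between PAICS and ATIC (0.51, limma adjusted p = 0.048). With the trend removed Adsl rose (0.96, adjusted p = 0.0035), and Prps1l3, a relative of Prps1, fell (-1.004, adjusted p = 0.013). On deposited values 1 call was left without WT replicate 2 and 1 without dKO replicate 2.

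In the branch that divides IMP between AMP and GMP, 3 of 8 rose and 2 fell, with a median of 0.15. The AMP deaminases Ampd2 and Ampd3 fell as deposited (-1.82 and -2.18, limma adjusted p-values of 0.00057 and 0.0040) and with the trend removed (-0.70 and -1.47). Adssl1, Gmpr and Gmpr2 rose by 1.15, 1.19 and 0.83 as deposited and passed no longer with the trend removed. Gmps, which makes GMP, was at 0.22 as deposited (adjusted p = 0.46) and rose by 1.496 with the trend removed (adjusted p = 0.0031).

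Among other pyrimidine enzymes, 6 of 8 rose and 1 fell, with a median of 1.15, and 2 rose and 1 fell with the trend removed. The 7 calls on deposited values became 3 without WT replicate 2 and 3 without WT replicate 3. Nme1, a nucleoside diphosphate kinase (1.76 and, trend removed, 1.93), and the UMP and CMP kinase Cmpk1 (0.58 and 0.48) rose in both readings, and Cmpk2 (-1.06 and -0.95) fell in both. Nme1 and Nme2 are near-identical neighbours, and how reads were split between them is uncertain. Ctps2, the other CTP synthetase, was at 0.088 (adjusted p = 0.71).

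The enzymes of deoxynucleotide supply had 7 of 10 higher and 0 lower, with a median of 1.12. Tyms, which makes dTMP, Dut, which clears dUTP, and Samhd1, which degrades dNTPs, rose both as deposited (1.37, 1.73 and 0.87) and with the trend removed (1.84, 1.02 and 1.46). Their limma adjusted p-values with the trend removed were 0.0046, 0.016 and 0.0028. Rrm2, the regulated subunit of ribonucleotide reductase, rose by 1.002 as deposited (adjusted p = 0.011) and was at 0.43 with the trend removed (adjusted p = 0.31). Rrm1, its large subunit, was at -0.43 (adjusted p = 0.32).

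Salvage enzymes had 8 of 16 higher and 0 lower, with a median of 1.02, and 3 higher and 2 lower with the trend removed. Adk, Pnp and Tk1, which reclaim adenosine, purine nucleosides and thymidine, rose in both readings (1.02, 1.16 and 1.44 as deposited, 1.36, 1.07 and 1.21 with the trend removed). Hprt, which reclaims hypoxanthine and guanine, rose by 1.48 as deposited (limma adjusted p = 0.00098) and was at 0.32 with the trend removed (adjusted p = 0.16). Dck, the deoxycytidine kinase, was at -0.63 (adjusted p = 0.051) and fell by 0.72 with the trend removed (adjusted p = 0.030). Uprt was at -0.75 (adjusted p = 0.21) and fell by 1.28 with the trend removed (adjusted p = 0.042).

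Genes of one-carbon and serine metabolism, which feed carbon into purines and dTMP, had 5 of 17 higher and 1 lower, with a median of 0.36, and 3 calls were made without WT replicate 2 and 3 without WT replicate 3. Psph, which releases serine, and Mthfs, a folate enzyme, rose in both readings (1.42 and 1.63 as deposited, 1.39 and 1.96 with the trend removed). Phgdh, which opens serine synthesis, rose by 0.83 as deposited (limma adjusted p = 0.0060) and was at 0.28 with the trend removed (adjusted p = 0.36). For the supply of glutamine and aspartate, 1 of 8 rose and 2 fell, with a median of -0.10. Glul, the glutamine synthetase, rose (1.42 and 1.32), and the glutamine carrier Slc38a2 fell (-1.79 as deposited and -0.67 with the trend removed).

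Breakdown enzymes had 6 of 12 higher and 0 lower (median 0.56) and 3 higher with the trend removed, among them Nudt5 and Nt5m in both readings. Adenylate and guanylate kinases had 2 of 6 higher and 1 lower (median 0.093), and 0 higher and 1 lower with the trend removed. Nucleoside transporters had 1 of 5 higher and 1 lower (median -0.12), with the equilibrative transporter Slc29a1 higher in both readings (0.99 and 0.67).

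**Figure D5:**
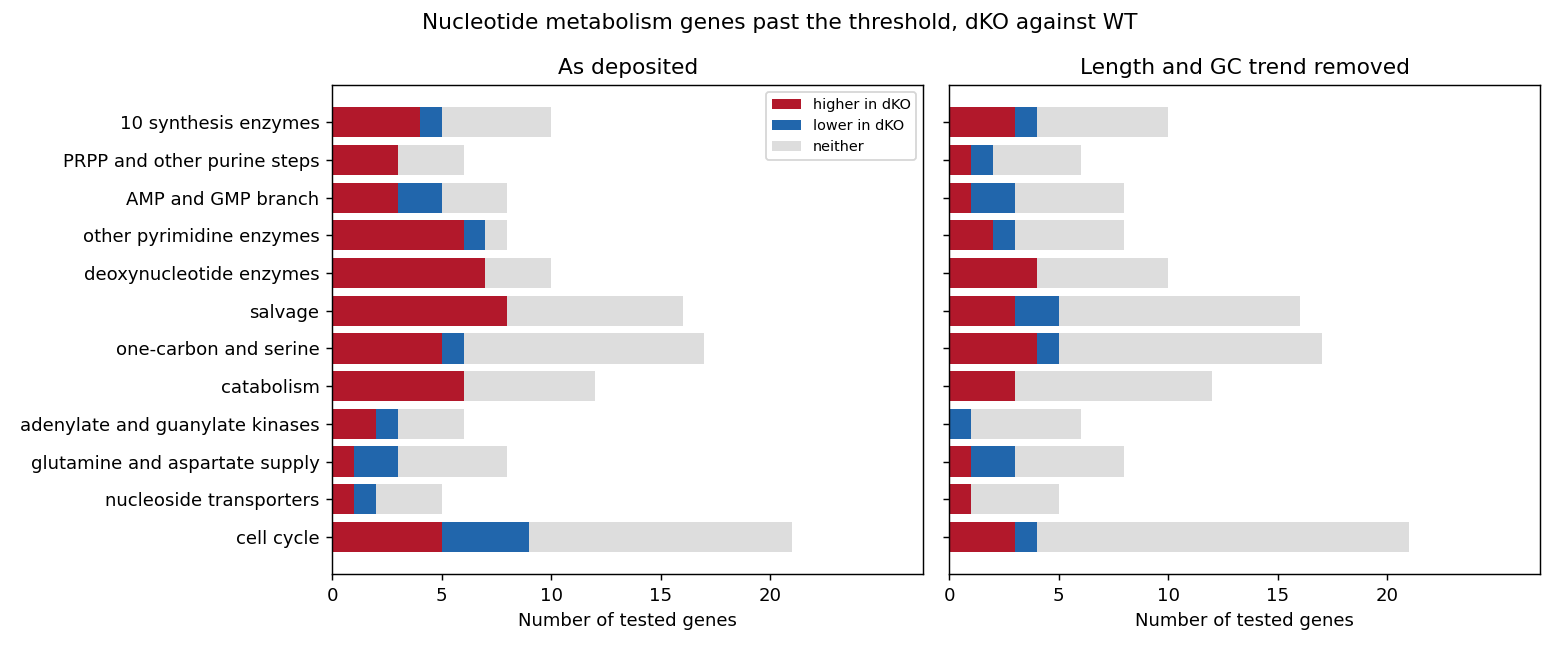
Number of tested genes per list (horizontal axis) that were higher, lower or neither in dKO against WT by limma with an adjusted p under 0.05, with deposited values (left) and trend-removed values (right). In deoxynucleotide supply 7 of 10 were higher as deposited and 4 with the trend removed, and in salvage 8 of 16 and 3.

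In Tet2 KO against WT, 0 of the 96 tested genes in these 10 lists of nucleotide metabolism passed by limma, and edgeR called 0 and DESeq2 called 1. An unadjusted limma p under 0.05 was found for 7 of the 96, against 1186 of all 14045 tested genes. In Traf6 KO against WT, 0 of 96 passed by limma, and edgeR and DESeq2 called 0. An unadjusted limma p under 0.05 was found for 4 of the 96, against 1096 of all 14045 tested genes. Of MYC and its network 0 of 12 rose and 3 fell in dKO against WT as deposited, with a list median of -0.26, and 3 rose and 2 fell with the trend removed, with a median of -0.12. The 3 were Mlxip, Mxi1 and Mxd4 (1.42, 1.07 and 1.46), and without dKO replicate 1 the deposited values gave 5 calls. Myc itself was at 25425 ± 5056 in dKO and 19394 ± 534 in WT (mean ± SD, n = 3 each, log2 change 0.37, limma adjusted p = 0.21). Mycn (-1.31 and -1.28) and Mxd1 (-1.68 and -0.71) fell in both readings.

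Of 21 marker genes of dividing cells 5 rose and 4 fell in dKO against WT, with a median of 0.049, and 3 rose and 1 fell with the trend removed. The 9 calls on deposited values became 4 without WT replicate 2. The summed signal of the 21 was 128985 to 206832 in dKO and 147831 to 201200.4 in WT, so the groups overlapped. Cdk1 and Birc5 rose (1.38 and 1.53, and 2.11 and 1.72 with the trend removed), and Top2a fell (-1.66 and -0.81). Mki67 fell as deposited (-1.64, limma adjusted p = 0.0070) and was at 0.23 with the trend removed (adjusted p = 0.64).

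Of markers of B, T and NK cells 2 of 6 tested genes were higher in dKO than in WT and 0 lower, of erythroid genes 3 of 8 and 0, of mature myeloid genes 1 of 9 and 1, of megakaryocyte genes 1 of 7 and 3, and of stromal and endothelial genes 0 of 5 and 2. Once the trend was removed these were 1 and 0, 1 and 0, 2 and 1, 0 and 5, and 0 and 0. Without dKO replicate 3 the calls of either direction on deposited values were 1, 2, 1, 4 and 0 in the same order, and with any single library left out they ranged over 1 to 2, 2 to 4, 1 to 4, 2 to 4 and 0 to 2. The summed signal of 10 markers of B, T and NK cells was 8008 to 78422 in dKO and 4940.0 to 5885 in WT, and of 8 erythroid genes 15253 to 33125 in dKO and 1746 to 3079 in WT. For mature myeloid cells the sum of 10 markers was 4517 to 11631 in dKO and 2323 to 5026 in WT, which overlapped. Most of the lymphoid signal was Nkg7 (49423 in dKO replicate 3) and Igkc (28286 in the same library), while Cd3e, Cd8a and Ncr1, which define T and NK cells, were at 0 in all 3 dKO libraries. Most of the erythroid signal was Car1, at 22156 ± 8614 in dKO and 1569 ± 420.4 in WT (mean ± SD, n = 3 each). Their part in the enzyme changes was not tested. Dhodh, Umps and Cad kept their calls against WT without dKO replicate 3, with log2 changes of 0.96, 0.63 and -2.93 and limma adjusted p-values of 0.0032, 0.030 and 0.0010.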

How the data were processed

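RNA of 12 libraries of sorted LSK cells was extracted with RNeasy Plus Micro columns, amplified with the SMART-Seq v4 low-input kit, which does not keep strand, and sequenced on a HiSeq 4000, per the labels' protocols. Per the submitters' processing notes, the tools included STAR, featureCounts, bcl2fastq and DESeq2, with builds mm10 and GRCm38. The deposited table holds the authors' normalised signal, reads divided by a size factor per library. Multiplying back gave whole reads for all genes (tolerance 1e-06).

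Values were taken as log2(value + 1), so changes of low genes are understated. Genes with at least 10 in at least 3 libraries (14045) were fitted with limma 3.58.1 (R 4.3.3; trend and robust variance) over all 12 libraries as 4 genotypes. P-values were adjusted by Benjamini-Hochberg over all tested genes within each of 6 comparisons, with a threshold of 0.05. The length and GC trend was a loess curve (span 0.5) per library on the longest GENCODE M21 transcript, known for 13676 tested genes. Alternatives used edgeR 4.0.16 and DESeq2 1.42.0 on the recovered reads, other scalings and filters, and each library left out. The count and limma tests were checked on simulated data. Of 208 genes in 19 lists 204 were found. The 10 enzymes and the lists were chosen with earlier results of these data known. The genes named were the 10 enzymes, up to 4 genes with the smallest p in each list and called genes where 5 or fewer, the most abundant markers of other cells, and the 5 genes most like the enzymes' mean. Nudt5, Rrm1, Dck and the lymphoid markers at 0 lie outside that rule and were named after their values were seen. A few genes of the lists are counted but not reported here by name. Library totals are given in the report, and no sample was left out of the main results.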

Additional observations from a re-analysis of the deposited data

How the results depend on the processing

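The 10 enzymes' log2 changes were recomputed under 24 alternatives, of which 2 were added after seeing the data (the trend removed with dKO replicate 3 also left out, and the trend on the longest coding transcript). In dKO against WT, Cad stayed lower (-3.09 to -0.81) and Dhodh higher (0.59 to 1.55) past the threshold in all 24, and Umps stayed higher (0.42 to 1.15) in all 24 and past it in 22. Equal library totals moved the median of all genes to -0.34, against -0.094 as deposited. The cause of the changes below was not tested unless the alternative itself uses fewer libraries.

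Enzymes called were 3 in dKO against WT and 1 in dKO against Tet2 KO with equal totals, 0 in dKO against Tet2 KO with only the compared groups or without the libraries against their labels, and by DESeq2 1 in Tet2 KO against WT and 1 in the interaction. Genes called overall were 6790 in dKO against WT, and 3995 with the trend removed, 3892 with replicate block too, 3575 without dKO replicate 3 too and 3427 on coding transcripts. In dKO against Tet2 KO they were 4963, and under those settings 2249, 2154, 1542 and 1770, with 24 for only the compared groups and 57 without the libraries against their labels. In dKO against Traf6 KO they were 5342, and 2737, 2596, 1899, 2255, 970 and 1706 in the same order. In Tet2 KO against WT they were 58, and 327 with only the compared groups, 300 by DESeq2, 117 without the libraries against their labels and 100 with the trend and dKO replicate 3 removed. In Traf6 KO against WT they were 38, and 64 with the trend removed on either transcript, 131 without dKO replicate 3 too, 167 by DESeq2 and 25 without the libraries against their labels. In the interaction they were 31, and 259 by DESeq2 and 15 without the libraries against their labels.

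Leaving out 1 library at a time gave 4 to 7 enzymes called in dKO against WT, 0 to 5 against Tet2 KO, 2 to 5 against Traf6 KO, 0 to 1 in the interaction and 0 in the single knockouts. Genes overall were 4707 to 7768, 867 to 6724, 2069 to 6946 and 14 to 2445 in the same order, 22 to 146 in Tet2 KO and 18 to 78 in Traf6 KO against WT. Signs changed in these ranges for Ppat (-0.49 to 0.0056) and Gart (-0.79 to 0.14) in dKO against WT. In dKO against Tet2 KO they changed for Ppat (-0.48 to 0.011), Gart (-0.82 to 0.11), Pfas (-0.041 to 0.54) and Atic (-0.19 to 0.56), and in dKO against Traf6 KO for Pfas (-0.26 to 0.32) and Atic (-0.19 to 0.56). In Tet2 KO against WT they changed for Ctps (-0.17 to 0.16), Gart (-0.11 to 0.16) and Ppat (-0.12 to 0.084), and in Traf6 KO against WT for Cad (-0.47 to 0.0094) and Ctps (-0.36 to 0.091).

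Signs also turned with the trend removed, without dKO replicate 3 too, and on coding transcripts. In dKO against WT these values were 0.26, 0.41 and 0.33 for Ppat, 0.18, 0.59 and 0.33 for Gart, and 1.27, 0.93 and 1.35 for Pfas. In dKO against Tet2 KO they were 0.16, 0.32 and 0.22 for Ppat and 0.12, 0.53 and 0.23 for Gart, and Atic was -0.18 without dKO replicate 3. In dKO against Traf6 KO they were 0.060, 0.22 and 0.13 for Ppat, and 0.19 for Gart and -0.24 for Atic without dKO replicate 3, while Pfas was -0.13 with equal totals and -0.044 without the libraries against their labels. In Tet2 KO against WT Ppat was 0.10, 0.09 and 0.11, 0.016 by edgeR and 0.069 without the libraries against their labels, and Ctps was 0.036 by edgeR, 0.021 by DESeq2 and 0.16 without those libraries. In Traf6 KO against WT Cad was 0.21, 0.20 and 0.21, and Ctps was 0.09 without those libraries. In the interaction Impdh2 was -0.050 with the trend removed, Umps -0.018 without those libraries, Ppat 0.12 without dKO replicate 3 and 0.015 on coding transcripts, and Gart 0.13 without dKO replicate 3.

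Same-numbered libraries of different genotypes did not deviate together (correlations of -0.177 to 0.193, 3 of 18 over 0.1, and 4 of 12 libraries closest to their own number), so they were not treated as pairs. With 3 libraries per genotype these correlations cannot show that the numbers carry no pairing. With a replicate block the enzymes called stayed at 5 in dKO against WT and 3 against each single knockout, and genes overall were 6574, 4633 and 4917, with 45 and 29 in Tet2 KO and Traf6 KO against WT and 25 in the interaction.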
